A study of Mus musculus with 24 samples.

Results

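Kinesins are the motor proteins that walk along microtubules or take them apart. The set described here holds every gene of the table whose mouse symbol consists of Kif, digits and an optional letter, 36 of 17721 genes. By known role, 11 of them build or run the mitotic spindle, 13 carry cargo, 6 belong to the cilium, 5 have other tasks, and Kif2a serves both the spindle and other microtubules. Kif2b and Kif28, the other 2 of the 38 such symbols in the GENCODE M21 annotation, have no row and were not analysed here. Kif1bp, which binds kinesins and is not a motor, was kept out of the set.

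A mitotic kinesin is made for a short time. Its gene is transcribed in G2 and M phase, and the protein separates spindle poles, moves chromosomes or completes cytokinesis before much of it is destroyed. Transport kinesins work in every phase and in cells that no longer divide, where they carry vesicles, mitochondria and RNA outward from the cell centre. In the epidermis basal keratinocytes divide and their daughters leave the cycle to form the barrier, and a bulk sample mixes both. Fewer cells near mitosis and less RNA per cell cannot be told apart in these bulk libraries.

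The knockout mice, called EpiKO, lacked Bmal1 (Arntl in the table), which drives transcription in the circadian clock, in cells where the keratin 14 promoter makes Cre, the basal keratinocytes and their offspring; other tissues kept a working clock. Back skin epidermis of 24 male C57BL/6 mice aged 8 weeks was collected, 4 mice every 4 h from ZT0 to ZT20, where ZT0 is lights-on in a day of 12 h light and 12 h dark. The comparison was wild-type (WT) epidermis. The labels describe the same collection for each genotype, but this series holds EpiKO libraries only, and no source used here names the strain of the WT mice. The data are the authors' fit of a daily cosine curve to each gene in both genotypes with dryR, which gives each gene a weight between 0 and 1 for each of 5 patterns (no rhythm, EpiKO only, WT only, the same rhythm, different rhythms). A gene was assigned to a pattern when its weight was at least 0.5. Weights are not p-values. The table marks its sides WT and FC, and FC was read as EpiKO. The table has no value per mouse, so the depth is unknown and neither a spread between animals nor a test across them could be computed.

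The tissue and the knockout were checked first. All 8 keratinocyte markers had levels between 8.68 and 17.7 (log2) in EpiKO and between 8.68 and 17.8 in WT in the authors' deposited table. Arntl was assigned a rhythm in WT only, weight 0.882 per the authors' deposited table, and its mean level there was 9.65 in EpiKO and 9.50 in WT (log2), which sums reads over the whole gene and so does not check the deleted part. Among markers of other cells, 4 of 6 Langerhans cell, 3 of 5 measured T cell, 3 of 4 endothelial and 3 of 6 fibroblast genes had a higher mean in EpiKO, as did 32.7% of all genes. Means were lower in EpiKO for 3 of 5 Schwann cell, 2 of 4 muscle, 3 of 8 hair follicle and 2 of 6 melanocyte genes, against 37.4% of all genes, so that the hair follicle and melanocyte counts were near the share of any gene. Summed levels of the T cell list were 11.6 in EpiKO and 10.6 in WT, those of the Langerhans cell list 12.2 in EpiKO and 11.6 in WT, and those of the Schwann cell list 10.5 in EpiKO and 11.5 in WT (log2). The hair follicle list summed to 8.61 in EpiKO and 11.2 in WT, and the muscle list to 2.87 in EpiKO and 9.90 in WT, where Acta1 alone had 2.21 in EpiKO and 9.90 in WT (log2). The part of these other cells in the kinesin results was not tested.

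The first comparison asked whether the 2 kinds of kinesin keep the same daily rhythm without the epidermal clock. All 11 mitotic kinesins had different rhythms in EpiKO and WT, and none of the 25 other kinesins did. Different rhythms were assigned to 2.65% of all genes. The smallest weight of that pattern among the 11 mitotic kinesins was 0.999 (Kif18a) in the authors' deposited table. Of the 25 others, 14 were without rhythm, 5 kept a rhythm common to both genotypes, Kif26b had a rhythm in EpiKO only, no gene had one in WT only, and 5 stayed unassigned. The corresponding shares of all genes were 56.7% with no rhythm, 16.7% with the same rhythm, 4.31% with a rhythm in EpiKO only, 8.41% with one in WT only and 11.3% unassigned. The counts for the 25 genes outside the mitotic list thus lay near those of any gene for no rhythm, same rhythm and EpiKO only. The difference between the mitotic and the other kinesins is a description of the authors' fits, with no test of its own.

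**Figure D1:**
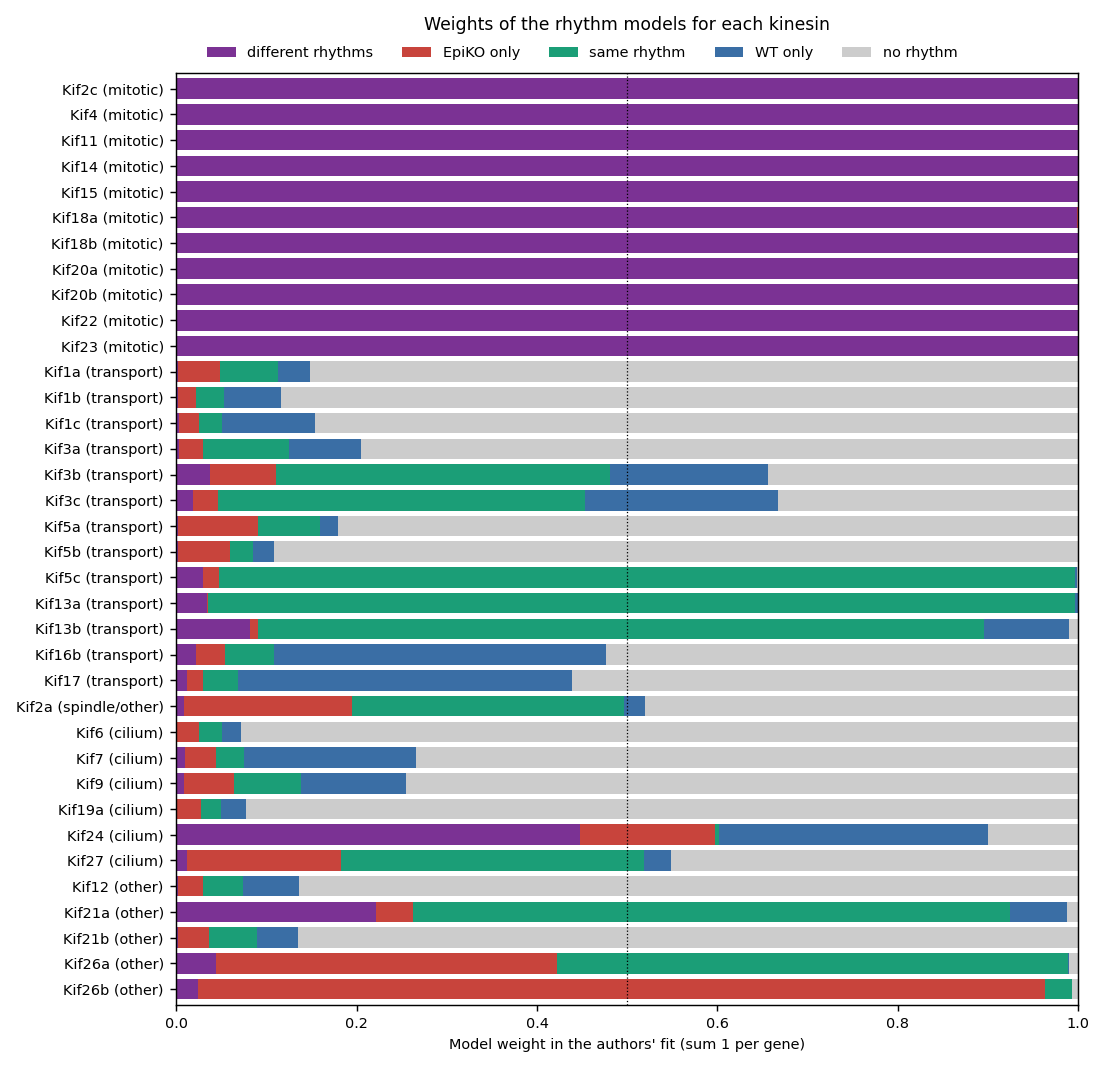
Weight of each of the 5 patterns (horizontal axis, summing to 1) for each of the 36 kinesins, with the role in parentheses and a dotted line at the limit of 0.5. The bars of the 11 mitotic kinesins are filled by different rhythms, while no other kinesin has a weight above 0.448 for that pattern.

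Mitotic kinesins peaked in the middle of the light phase in EpiKO and late in the dark phase in WT. Fitted peaks of the 11 genes averaged ZT5.91 in EpiKO and ZT22.5 in WT. The delay in EpiKO was 6.25 to 8.41 h over the 11 genes, with a median of 7.47 h, taking the shorter way round the 24 h cycle. Of all genes in the table, 1.85% had different rhythms with a peak 3 to 12 h later in EpiKO. Among the 470 genes with different rhythms, 327 peaked 3 to 12 h later in EpiKO. The median delay of the 470 was 5.66 h, and their peaks averaged ZT5.15 in EpiKO and ZT20.4 in WT. A later peak in EpiKO was thus shared by most genes with different rhythms. Of the 470, 130 (27.7%) had a peak difference within the range of the 11 mitotic kinesins.

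**Figure D2:**
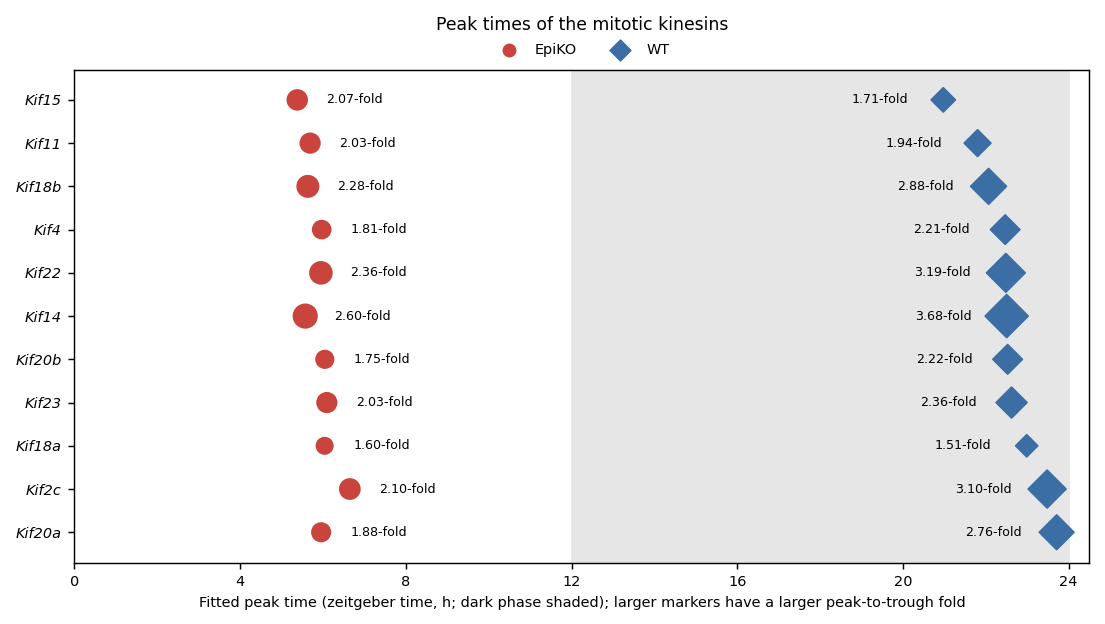
Fitted peak time of the 11 mitotic kinesins in EpiKO (circles) and WT (diamonds), ordered by WT peak time, with the peak-to-trough fold beside each marker. EpiKO peaks span 1.27 h in the light phase and WT peaks span 2.74 h in the dark phase.

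Before the values, the promoters of these genes are shown, since the 11 genes move together in both genotypes and genes of G2 and M phase often carry a short element, the cell cycle genes homology region (CHR), with the letters TTTGAA, near their start. RefSeq promoters (build GRCm38.p6, 250 bases before to 50 after the start) were found for 10 of the 11 mitotic kinesins and for 20 of the 25 others. The first 4 below are mitotic kinesins with CHR letters close to the start, Kif18a is the mitotic kinesin without them, and Kif5c is a transport kinesin. Each runs 5′ to 3′ on the strand of the gene, and capitals mark TTTGAA or its reverse complement TTCAAA and CCAAT or its reverse complement ATTGG.
Kif11, chr19:37376132-37376431, plus strand: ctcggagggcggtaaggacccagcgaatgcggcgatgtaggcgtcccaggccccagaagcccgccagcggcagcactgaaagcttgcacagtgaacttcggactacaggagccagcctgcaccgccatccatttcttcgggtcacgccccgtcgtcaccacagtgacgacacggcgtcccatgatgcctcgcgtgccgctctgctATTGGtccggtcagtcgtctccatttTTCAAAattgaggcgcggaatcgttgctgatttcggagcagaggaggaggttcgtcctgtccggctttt
Kif22, chr7:127042371-127042670, minus strand: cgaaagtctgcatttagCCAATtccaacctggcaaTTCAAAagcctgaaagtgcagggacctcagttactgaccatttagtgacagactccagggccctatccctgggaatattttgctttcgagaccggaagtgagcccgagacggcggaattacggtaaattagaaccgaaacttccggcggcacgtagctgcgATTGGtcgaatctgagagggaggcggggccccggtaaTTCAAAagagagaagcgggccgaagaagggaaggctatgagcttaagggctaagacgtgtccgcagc
Kif23, chr9:61946750-61947049, minus strand: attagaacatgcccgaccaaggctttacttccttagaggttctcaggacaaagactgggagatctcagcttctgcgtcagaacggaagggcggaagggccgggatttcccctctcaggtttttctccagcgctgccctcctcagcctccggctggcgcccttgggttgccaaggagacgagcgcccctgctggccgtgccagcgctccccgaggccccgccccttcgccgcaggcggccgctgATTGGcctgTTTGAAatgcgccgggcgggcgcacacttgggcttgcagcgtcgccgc
Kif18b, chr11:102925075-102925374, minus strand: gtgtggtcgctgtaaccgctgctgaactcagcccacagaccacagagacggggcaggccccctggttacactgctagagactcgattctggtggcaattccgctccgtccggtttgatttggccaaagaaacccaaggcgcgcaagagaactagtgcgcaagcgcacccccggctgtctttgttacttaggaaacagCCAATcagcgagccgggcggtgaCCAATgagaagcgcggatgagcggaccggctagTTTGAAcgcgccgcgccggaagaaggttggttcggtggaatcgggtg
Kif18a, chr2:109280488-109280787, plus strand: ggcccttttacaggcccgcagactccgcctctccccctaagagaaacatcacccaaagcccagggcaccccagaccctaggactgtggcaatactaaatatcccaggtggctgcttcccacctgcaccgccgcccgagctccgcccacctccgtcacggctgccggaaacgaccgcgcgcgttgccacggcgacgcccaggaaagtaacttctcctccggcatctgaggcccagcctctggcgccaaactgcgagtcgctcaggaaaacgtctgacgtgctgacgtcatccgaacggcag
Kif5c, chr2:49619036-49619335, plus strand: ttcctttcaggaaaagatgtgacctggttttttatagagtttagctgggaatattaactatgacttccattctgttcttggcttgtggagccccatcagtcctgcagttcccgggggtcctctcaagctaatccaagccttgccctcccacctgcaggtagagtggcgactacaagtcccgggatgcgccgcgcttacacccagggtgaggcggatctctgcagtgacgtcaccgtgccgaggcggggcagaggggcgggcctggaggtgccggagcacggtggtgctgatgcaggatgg

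CHR letters on either strand stood in the promoters of 9 of 10 mitotic kinesins and 3 of 20 other kinesins, and in those of 15.2% of the 13582 genes of the table with a promoter. For Kif4, Kif14, Kif2c, Kif27 and Kif1a, the window with these letters lay inside the GENCODE gene, away from its outer start. The Kif4 window began at 100625815 and its gene at 100625737. The Kif14 window began at 136467598 and the gene at 136466343. The Kif2c window ended at 117179022 and its gene, on the minus strand, at 117182639. Whether such inner starts are used in epidermis was not tested. The CCAAT box, a site of the factor NF-Y, was present in 6 of 10 mitotic and 7 of 20 other kinesins and in 42.0% of genes, and both motifs together in 6 of 10, 2 of 20 and 6.25%. No match of CCAAT overlapped one of CHR in the promoters printed here. The E-box CACGTG, the letters bound by CLOCK and BMAL1, was found in 0 of 10 mitotic and 1 of 20 other kinesins and in 10.5% of genes. In 7 of 10 mitotic kinesins a CHR match lay within 30 bases of the start, against 1 of 20 other kinesins and 2.78% of genes, a window chosen after the matches were seen. For Kif11 it covers bases -19 to -14 and for Kif22 bases -17 to -12, while Kif23 has it at 3 to 8 and Kif18b at 4 to 9 after the start. Kif4, also 1 of the 7, has it at 20 to 25 after its inner start. Median GC content was 60.2% for mitotic kinesins, 67.7% for the other kinesins and 59.0% for promoters of genes in the table. These letters are a description and no factor was measured at them.

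Among the motors that build the spindle, Kif11 (Eg5, ENSMUSG00000012443, mm10 chromosome 19, 37376403 to 37421859, plus strand) slides antiparallel microtubules apart and so separates the poles. Its fitted level in the authors' deposited table, read at ZT0, ZT4, ZT8, ZT12, ZT16 and ZT20, was 9.61, 10.03, 9.99, 9.52, 9.10 and 9.14 in EpiKO and 9.97, 9.54, 9.14, 9.17, 9.59 and 9.99 in WT (log2). The curve was high at ZT4 and ZT8 in EpiKO and at ZT0 and ZT20 in WT, around one mean of 9.57 that the authors' model gave to both genotypes. Its peak-to-trough fold was 2.03 in EpiKO and 1.94 in WT, and its peak lay 7.89 h later in EpiKO. Kif15, which can hold the spindle poles apart alongside Kif11, had the longest delay of the 11, 8.41 h, with peaks at ZT5.38 in EpiKO and ZT21.0 in WT. Kif15 was also the only mitotic kinesin called lower on average in EpiKO, with means of 8.40 in EpiKO and 8.78 in WT (log2, the authors' deposited table).

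Among the motors that act on chromosomes and microtubule ends, Kif22 and Kif4 are chromokinesins, which bind chromosome arms, and Kif4 also works with Prc1 in the midzone. Fitted levels of Kif22 at the same 6 times were 8.24, 8.78, 8.77, 8.23, 7.69 and 7.70 in EpiKO and 8.49, 7.83, 7.05, 6.95, 7.61 and 8.39 in WT (log2, the authors' deposited table). The largest gap, at ZT8, was in favour of EpiKO, and at ZT0 and ZT20 the curve was lower in EpiKO than in WT. Kif22 varied 2.36-fold over the day in EpiKO and 3.19-fold in WT, and Kif4 1.81-fold in EpiKO and 2.21-fold in WT. Kif2c (MCAK), which strips tubulin from microtubule ends and frees wrongly attached chromosomes, varied 2.10-fold in EpiKO and 3.10-fold in WT, with peaks at ZT6.65 and ZT23.5 in that order. Kif18b, a plus-end motor that partners Kif2c on astral microtubules, peaked at ZT5.64 in EpiKO and ZT22.1 in WT. The authors' deposited table gave the smallest folds to Kif18a, which damps chromosome movement at the metaphase plate, 1.60 in EpiKO and 1.51 in WT. Its fitted level at ZT0 to ZT20 was 7.57, 7.86, 7.86, 7.57, 7.28 and 7.27 in EpiKO and 7.32, 7.11, 6.82, 6.75, 6.96 and 7.24 in WT (log2), higher in EpiKO at each of the 6 times, which held for no other mitotic kinesin.

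Among the motors of cytokinesis, Kif14 (ENSMUSG00000041498, mm10 chromosome 1, 136466343 to 136531511, plus strand), which works with citron kinase at the midbody, had the largest folds in the authors' deposited table, 2.60 in EpiKO and 3.68 in WT. Its fitted levels from ZT0 to ZT20 were 7.55, 8.11, 8.03, 7.40, 6.84 and 6.92 in EpiKO and 8.34, 7.60, 6.73, 6.61, 7.35 and 8.22 in WT (log2). The EpiKO curve was the lower of the pair at ZT0, ZT16 and ZT20 and the higher at ZT4, ZT8 and ZT12, with one shared mean of 7.48. Kif23, the motor of the centralspindlin complex, varied 2.03-fold in EpiKO and 2.36-fold in WT and peaked at ZT6.09 in EpiKO and ZT22.6 in WT. Kif20a, which brings the chromosomal passenger complex to the midzone, had the shortest delay, 6.25 h, with peaks at ZT5.96 in EpiKO and ZT23.7 in WT. Kif20b, needed for the last cut between daughter cells, peaked at ZT6.04 in EpiKO and ZT22.5 in WT. Part of the reads could be uncertain, since 29.3% of the exon bases of Kif20a lie opposite Cdc23 and 15.1% of those of Kif4 opposite Pdzd11, and no source used here says whether the counting kept the strands apart. Counting only the 9 mitotic kinesins with under 5% of read-length windows shared with another gene left 9 of 9 with different rhythms.

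**Figure D3:**
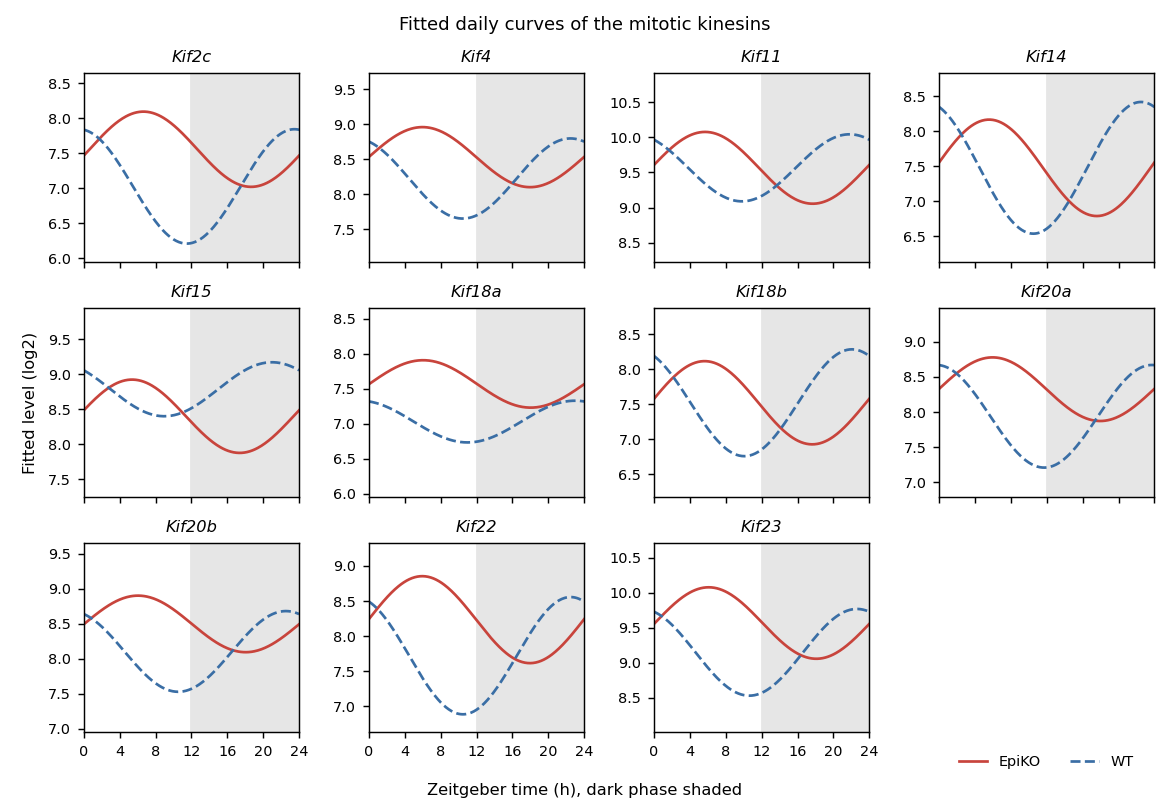
Fitted log2 level of the 11 mitotic kinesins over the day (horizontal axis, ZT in hours, dark phase shaded) in EpiKO (solid) and WT (dashed), drawn from the authors' coefficients. The EpiKO curves crest near ZT6 and the WT curves near ZT22.5.

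The 11 curves held together more closely in EpiKO. The standard deviation of the fitted peaks over the 11 genes was 0.338 h in EpiKO and 0.754 h in WT, which is a spread over genes and not over mice. Genes with earlier peaks in one genotype tended to be earlier in the other (Spearman rho 0.709, Pearson r 0.765 across the 11 genes, which share their libraries). Relative to each gene's own mean, the median fitted level at ZT8 was 0.42 above the mean in EpiKO and -0.46 from it in WT, and at ZT20 it was -0.42 in EpiKO and 0.46 in WT (log2). The fitted level was higher in EpiKO for 11 of 11 genes at ZT4 and ZT8, for 10 at ZT12, for 7 at ZT16, and for 1 at ZT0 and at ZT20. The median difference, EpiKO minus WT, was 1.19 at ZT8 and -0.52 at ZT20 (log2).

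Daily change was smaller in EpiKO for most of these genes. The median fold of the 11 was 2.03 in EpiKO (range 1.60 to 2.60) and 2.36 in WT (range 1.51 to 3.68). Amplitude was lower in EpiKO for 8 genes and higher for Kif11, Kif15 and Kif18a. Of the 470 genes of the table with different rhythms, 340 (72.3%) had a lower amplitude in EpiKO, and their median fold was 1.47 in EpiKO and 1.64 in WT. The share of mitotic kinesins with a lower amplitude was therefore near that of all such genes, whereas their median folds were larger in both genotypes.

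Transport kinesins gave no gene with different rhythms. Of the 13, 8 were without rhythm, 3 shared a rhythm between EpiKO and WT and 2 stayed unassigned. Of all genes, 2.65% had different rhythms, 56.7% no rhythm and 16.7% the same rhythm, and 11.3% were unassigned. The counts for transport kinesins thus lay near those of any gene. The heavy chains of conventional kinesin differed in their pattern. Kif5b, the form found in most tissues, had no rhythm (weight 0.891 in the authors' deposited table), nor did Kif5a, a neuronal form (0.820). Kif5c, the other neuronal form, had one rhythm for both genotypes, 2.19-fold with a peak at ZT1.94, around a mean level of 3.99 (log2). Of the endosome and vesicle carriers, Kif13a and Kif13b had the same rhythm in both genotypes, with folds of 1.19 and 1.20 and peaks at ZT7.01 and ZT6.16 in the authors' deposited table. Kif16b, which moves early endosomes, was assigned no rhythm with a weight of only 0.524, next to 0.368 for a rhythm in WT only, and Kif17, a dendritic carrier, with 0.561 next to 0.371. Kif1a, Kif1b and Kif1c, carriers of synaptic vesicle precursors, mitochondria and other cargo, had no rhythm, with weights of 0.852, 0.884 and 0.846. Kif3a, part of the motor that builds cilia, had no rhythm either (0.796). Kif3b and Kif3c, which pair with Kif3a, remained unassigned, with the same rhythm as the heaviest pattern at 0.370 and 0.408; 40.7% of the exon bases of Kif3c lie opposite 1110002L01Rik or Gm48512.

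No cilium kinesin and none of the remaining members was assigned different rhythms, against 2.65% of all genes. Kif24, a centriolar kinesin that restrains cilium formation, came nearest to the mitotic group, with a weight of 0.448 for different rhythms, just under the limit of 0.5, and 0.298 for a rhythm in WT only. Its fitted fold was 1.37 in EpiKO and 1.38 in WT, with peaks at ZT4.90 in EpiKO and ZT19.1 in WT in the authors' deposited table. Kif7, a regulator of Hedgehog signalling at the cilium tip, had no rhythm, nor had Kif6, Kif9 and Kif19a, which are known from motile cilia, and Kif27, a relative of Kif7, stayed unassigned. Kif12 and Kif21b, among the members with other tasks, had no rhythm either. Averaged over EpiKO and WT, the levels of Kif1a, Kif6, Kif12, Kif17, Kif19a and Kif27, 6 of the 36, lay under the 0.25 quantile of all genes, 2.92 (log2, not corrected for gene length). Kif2a, a depolymerase of spindle and interphase microtubules related to Kif2c, was unassigned, with 0.480 for no rhythm, 0.303 for the same rhythm and 0.009 for different rhythms. Kif21a, which slows microtubule growth at the cell cortex, shared a 1.28-fold rhythm with a peak at ZT9.52, and Kif26a a 1.59-fold one with a peak at ZT21.3. For Kif26a the weight of 0.567 stood against 0.378 for a rhythm in EpiKO only. Its relative Kif26b (ENSMUSG00000026494, mm10 chromosome 1, 178529125 to 178939200, plus strand) is an atypical kinesin studied in Wnt5a and Ror signalling, and was the 1 member with a rhythm in EpiKO only, at a weight of 0.939. Fitted levels of Kif26b from ZT0 to ZT20 were 8.57, 8.58, 8.08, 7.56, 7.55 and 8.06 in EpiKO, 2.26-fold from trough to peak, and 8.07 at all times in WT (log2, the authors' deposited table). Its EpiKO curve was high at ZT0 and ZT4, ahead of the mitotic kinesins, with the peak at ZT2.06.

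**Figure D4:**
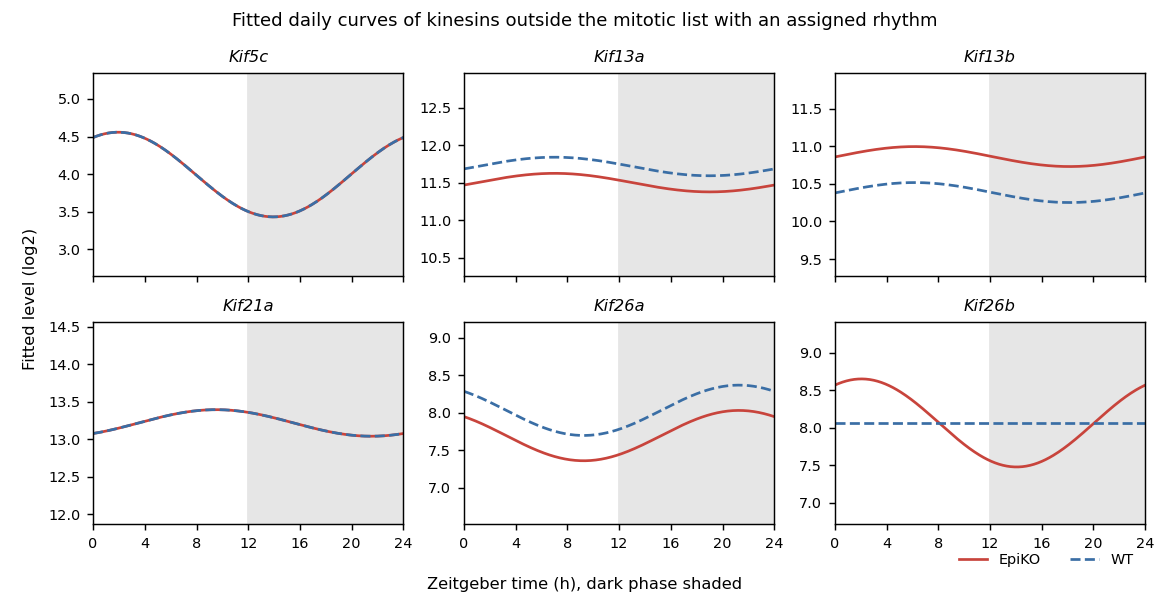
Fitted log2 level over the day of the kinesins outside the mitotic list that were assigned a rhythm (Kif5c, Kif13a, Kif13b, Kif21a, Kif26a and Kif26b), in EpiKO (solid) and WT (dashed). Where both genotypes share a rhythm the curves run in parallel or coincide, and Kif26b is flat in WT.

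Mean level was compared next, by the authors' second set of weights for equal or unequal means. Mitotic kinesins were mostly higher in EpiKO, 7 of 11 against 1 lower (Kif15) and 3 not called (Kif11, Kif14, Kif18b). Transport kinesins were mostly lower in EpiKO, 9 of 13 against 3 higher and Kif5c not called. Of all genes 32.7% were called higher and 37.4% lower in EpiKO, and the median difference of all genes was 0. The median difference was 0.39 for the mitotic and -0.21 for the transport kinesins (EpiKO minus WT, log2). The largest differences among mitotic kinesins were those of Kif18a (7.57 in EpiKO, 7.03 in WT) and Kif2c (7.56 in EpiKO, 7.03 in WT) in the authors' deposited table. Kif1a had the largest difference of all 36, 1.71 in EpiKO and 3.37 in WT. Like Kif17 and Kif6, named below, it averaged under the 0.25 quantile of all genes, 2.92 (log2). Without genes under that quantile, 7 transport kinesins were called lower and 3 higher in EpiKO. Kif17, with a difference of -0.90, Kif3a, with -0.86, and Kif5a, with -0.68, followed among the transport kinesins. Kif1a and Kif5a are best known from neurons, and in the same libraries the summed Schwann cell and muscle markers were lower in EpiKO by the values given above; their part in these differences was not tested. Kif13b, at 0.48, Kif3b, at 0.25, and Kif16b, at 0.12, were higher in EpiKO. Among cilium kinesins, Kif24 (-0.86), Kif6 (-0.85) and Kif7 (-0.80) were lower in EpiKO. With a minimum difference of 0.5 (log2), 3 mitotic kinesins were called higher and 0 lower, and 0 transport kinesins higher and 5 lower. Differences in how the EpiKO and WT libraries were made cannot be told apart from genotype in these means, nor in the peak times and amplitudes above.

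**Figure D5:**
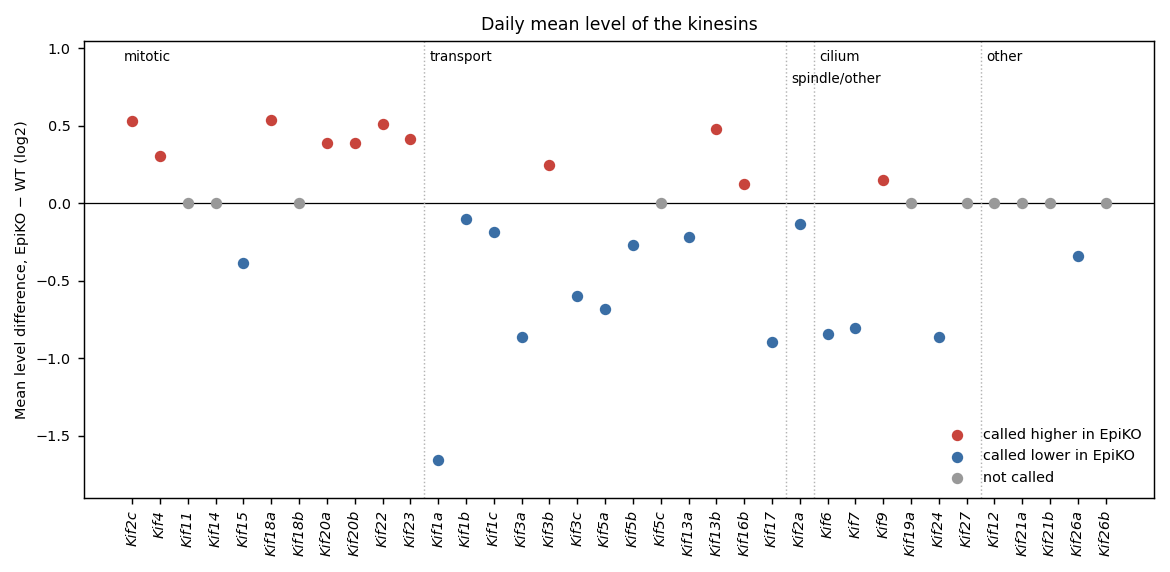
Difference of mean level, EpiKO minus WT (log2), on the vertical axis for the 36 kinesins ordered by role along the horizontal axis, coloured by whether the mean was called higher, lower or neither. Mitotic kinesins lie mostly above 0 and transport kinesins mostly below it, with Kif1a, a gene of low level, lowest at -1.66.

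Partners of these motors were read from lists chosen by known function. Of 15 spindle and midzone proteins that work with mitotic kinesins, 14 had different rhythms, against 2.65% of all genes. Their median delay in EpiKO was 7.06 h (range 4.69 to 8.29 h). Numa1 had a 1.16-fold rhythm in EpiKO only, a pattern assigned to 4.31% of all genes. Racgap1, the partner of Kif23, varied 2.19-fold in EpiKO and 2.57-fold in WT and peaked at ZT5.88 in EpiKO and ZT22.8 in WT in the authors' deposited table. Cit, the citron kinase that Kif14 works with, varied 2.55-fold in EpiKO and 2.32-fold in WT. Tpx2, which recruits Kif11 to the spindle in human cells, peaked at ZT5.92 in EpiKO and ZT22.5 in WT, and Prc1, which recruits Kif4, at ZT5.54 in EpiKO and ZT23.0 in WT. Among 5 kinesins with other symbols, Cenpe, the kinetochore motor, also had different rhythms, with peaks at ZT6.91 in EpiKO and ZT24.0 in WT, while Kifc2 had no rhythm and Kifc3 a 1.92-fold one in WT only. The minus-end motor Kifc1 and its close copy Kifc5b also had different rhythms, but share 39.1% and 36.9% of their read-length windows with other genes, so that their counts are uncertain. The same limit holds for Kifc3, with 20.6% of its windows shared. Of 16 adaptors and light chains of transport kinesins, none had different rhythms, 6 had no rhythm, 4 had one in WT only, 2 had the same rhythm and 4 stayed unassigned. Of all genes, 2.65% had different rhythms, 56.7% no rhythm, 8.41% one in WT only and 16.7% the same rhythm, and 11.3% were unassigned. The lack of different rhythms among the 16 was thus near the share of any gene. The cargo-binding light chain gene Klc1 had no rhythm (weight 0.827) and Klc2 shared a 1.19-fold rhythm, whereas Klc3 and Klc4 had a rhythm in WT only, that of Klc3 being 1.26-fold.

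Regulators that bind CHR and related sites in human cells, through the MuvB complex, B-Myb and FoxM1, were taken last. Of 9 such genes, 2 had different rhythms (2.65% of all genes) and 2 a rhythm in WT only (8.41%). Of the rest, 1 had the same rhythm (16.7%), 1 had none (56.7%) and 3 were unassigned (11.3%). Foxm1 was 1 of those with different rhythms, 2.32-fold in EpiKO and 2.58-fold in WT with peaks at ZT5.49 in EpiKO and ZT21.7 in WT in the authors' deposited table. Lin52, a MuvB subunit and the other gene with different rhythms (weight 0.540), peaked earlier in EpiKO, at ZT2.13 in EpiKO and ZT11.1 in WT. Mybl2, the gene of B-Myb, had a 2.34-fold rhythm in WT only, with its peak at ZT16.7, and Lin9, also a MuvB subunit, a 1.45-fold one in WT only. Mybl2 shares 19.2% of its read-length windows with other genes, so that its counts are uncertain.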

How the data were processed

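Back skin epidermis was separated with dispase and its polyA RNA sequenced as stranded libraries, per the labels' protocols. The tools featureCounts 1.6.0, SAMtools 1.3.1, HISAT2 2.2.1 and Trimmomatic 0.36, with edgeR and build mm10, are named, per the submitters' processing notes, in no stated order, and no source used here says whether counting kept the strands apart. The authors then compared EpiKO with WT using dryR, per the series' design text, and deposited 1 table of 17721 genes. Mean levels, amplitudes and coefficients in the deposited table are on a log2 scale, the depth behind them is unknown, and the levels are not per length, so sums over marker genes and the quantile of low levels weight long genes more, and no ranking of kinesins by level is given. The deposited model weights are a score from 0 to 1 (Bayesian information criterion weights) and peak times are in hours. Mean weights at or above 0.5 called a difference of mean. The table names 1 side WT and the other FC, and FC was read as EpiKO, the only genotype left.

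From these columns, counts, medians, circular mean peaks, fitted levels (mean plus coefficients) and folds (2 to the power of the peak-to-trough amplitude) were computed with Python 3.11.15, NumPy 2.4.6, pandas 2.3.3, SciPy 1.17.1 and matplotlib 3.10.9. Symbols came from GENCODE M21, which matched 17720 of 17721 IDs. Windows of 51 bases were compared between transcripts to find reads that genes could share. The steps for fitted curves, peak times, peak differences and pattern assignment were tested on simulated data, and those for shared windows and promoter motifs were not. Every member of the family may be named; from each partner list, genes that bind a named kinesin and up to 4 with the largest weight are named, while Numa1, Acta1, Lin52, Kifc1, Kifc5b, Klc3, Klc4, Lin9, Mybl2, the dynein genes and the genes at the ends of ranges may fall outside that rule and were chosen after their values were seen. Members, lists and tests were chosen with earlier results of these data known. Alternatives covered the weight limit, a minimum amplitude, a minimum level, a minimum mean difference, centring, the place of Kif2a and shared windows.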

Additional observations from a re-analysis of the deposited data

How the results depend on the processing

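The count of mitotic kinesins with different rhythms, their median delay, folds and mean peaks stayed within set limits under every alternative that was run. The limits were 1.5 times for counts, 1 SD over genes for medians and 1 h for mean peaks. Counting Kif2a as mitotic left that count at 11, but the enlarged group then held 1 gene, Kif2a, without different rhythms (weight 0.009). Of all recomputed values 103 stayed within those limits, some of them with a changed count, and 17 did not. Part of the 103 could not have moved. Centring changed nothing because the median difference of all genes was 0. The weights of different rhythms for the mitotic kinesins were at least 0.999, and their amplitudes and levels lay above the minimum ones, so those limits could not reach them. Leaving out genes with shared windows could not change the pattern of the mitotic kinesins that remained. Outside the mitotic list the weight limit decided some counts. With no minimum weight, 1 gene (Kif24) had different rhythms, 0 were unassigned and 5 transport kinesins had the same rhythm. With a minimum of 0.4, 1 gene had different rhythms and 1 was unassigned. With a minimum of 0.8, 5 transport kinesins had no rhythm, and among the 25 genes outside the mitotic list 9 had no rhythm, 3 the same rhythm and 12 were unassigned. Without genes below the 0.25 quantile of level, 9 of these had no rhythm. Summed weights, an alternative chosen after seeing the data like that on shared windows, gave 1.03 genes with different rhythms, 2.51 with a rhythm in EpiKO only and 2.43 in WT only. With a minimum mean difference of 0.5 (log2), 3 mitotic kinesins were higher and 0 lower in EpiKO, and 0 transport kinesins were higher and 5 lower. No paired analysis was possible because the table holds no values per library, and for the same reason no replicate could be left out. Depth is unknown, so it cannot be said how large a rhythm could have been seen in Kif12 or Kif19a.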

Other observations

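Dynein, the motor that walks toward the other microtubule end, was followed through 14 measured subunits of dynein and dynactin. None had different rhythms in EpiKO and WT, 6 had no rhythm, 3 had the same rhythm, 3 had one in WT only, 1 had one in EpiKO only and 1 stayed unassigned. Of all genes, 2.65% had different rhythms, 56.7% no rhythm, 16.7% the same rhythm and 8.41% one in WT only. The folds of the subunits with the same rhythm ran from 1.10 to 1.40 in the authors' deposited table. Mean level was called higher in EpiKO for 9 of the 14 and lower for 4, against 32.7% and 37.4% of all genes.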
